A study of Homo sapiens with 9 samples.

Results

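Amino acid transporters of the plasma membrane were followed in SKMEL-147 human melanoma cells with and without guide RNAs against PHF8. The set held 10 genes of the 57736 gene rows of the count table: SLC7A11, SLC3A2, SLC7A5, SLC7A1, SLC1A4, SLC1A5, SLC38A1, SLC38A2, SLC6A9 and SLC43A1. All 10 were matched by symbol in the normalized count table, and all 10 passed the low-count filter. The genes were selected on normalized counts of these same 9 libraries, under the description that SLC7A5 fell with the PHF8 guides while other stress-induced transporters rose. Levels and differences between groups of all 10 genes are therefore given as a description, with no p-value. The description does not hold for every member. SLC38A2 (log2 fold change -0.08 and -0.03) and SLC1A4 (-0.11 and 0.03), for example, were not higher with both guides.

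SKMEL-147 is an established melanoma line, and the cells used here expressed Cas9. A lentiviral guide RNA vector carrying GFP delivered a scrambled guide (sgScr) or either of 2 guides against PHF8 (sgPHF8-1 and sgPHF8-3), with 3 libraries per group, A to C. PHF8 encodes a histone lysine demethylase, and the comparison asks which transcripts depend on it in melanoma cells. The knockout cells were transduced populations and not single-cell clones, and the labels give no time of harvest for the RNA. Ribosomal RNA was removed from total RNA before sequencing, and each library held between 17366120 and 19838142 counted reads. The cells were sequenced in bulk, so that fewer cells expressing a gene and less RNA per cell cannot be told apart.

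Amino acids that cells cannot make, or cannot make fast enough, enter through these carriers. SLC3A2 (CD98, 4F2hc) is a heavy chain that does not carry amino acids itself but brings light chains such as SLC7A11 (xCT) and SLC7A5 (LAT1) to the membrane. SLC7A11 imports cystine in exchange for glutamate and so feeds glutathione synthesis, and SLC7A5 imports leucine and other large neutral amino acids in exchange for intracellular ones such as glutamine. When amino acids run short, the kinase GCN2 (EIF2AK4) phosphorylates eIF2alpha and the transcription factor ATF4 is translated, and several genes of this set are known ATF4 targets.

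The PHF8 transcript was measured first in every library. Its normalized counts were 655, 606 and 634 with sgScr, 564, 571 and 565 with sgPHF8-1, and 399.8, 387 and 434 with sgPHF8-3. Every PHF8 guide library was below every control library, and the sgPHF8-3 libraries were below those of sgPHF8-1. The log2 fold change was -0.16 (SE 0.054, adjusted p = 0.02718) with sgPHF8-1 and -0.63 (SE 0.057, adjusted p = 6.358e-09) with sgPHF8-3, by edgeR's quasi-likelihood test. The sgPHF8-1 call was lost without sgScr replicate A or C or sgPHF8-1 replicate A or C, and with DESeq2 (log2 fold change -0.16 to -0.13, adjusted p 0.0572 to 0.1234). A transcript level does not measure the PHF8 protein, which a guide can remove while the mRNA is still made. By Western blot, the study reported efficient PHF8 knockout in SKMEL-147 cells with both guides.

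Of the 11 melanocyte lineage markers checked, SOX10, MITF and PAX3 carried nearly all of the summed level, which was 3448 to 3534 normalized counts with sgScr, 3041 to 3169 with sgPHF8-1 and 3217 to 3309.9 with sgPHF8-3, while 2 pigment markers were at 0 in every library and 8 of the 11 had a mean under 10. The 5 markers of dedifferentiated melanoma summed to 42164 to 42799 with sgScr, 37282 to 38483 with sgPHF8-1 and 41210 to 42329 with sgPHF8-3. The markers of the second list did not all move one way. NGFR, the nerve growth factor receptor, fell with both guides (log2 fold change -0.70, adjusted p = 8.847e-15, and -0.29, adjusted p = 3.077e-07, edgeR), whereas SOX9 (0.25, adjusted p = 0.01293) and TEAD4 (0.19, adjusted p = 0.009729) were called higher with sgPHF8-1, calls lost without sgScr replicate C (0.19, adjusted p = 0.09726) and without sgScr replicate B (0.14, adjusted p = 0.08528), the first also with DESeq2. AXL, a receptor tyrosine kinase, was at -0.01 (adjusted p = 0.7258) and 0.07 (adjusted p = 0.08144), the latter passing the threshold with DESeq2 (adjusted p = 0.03746) and without sgPHF8-1 replicate B (adjusted p = 0.0225). SOX10 was called lower with both guides (-0.18, adjusted p = 7.853e-05, and -0.11, adjusted p = 0.01226), the second call being lost without sgScr replicate A or sgPHF8-3 replicate A or B (-0.11 to -0.10, adjusted p 0.05119 to 0.07303). MITF was called with neither guide (-0.14, adjusted p = 0.2157, and 0.14, adjusted p = 0.2509, edgeR). PAX3 was at -0.17 with either guide (adjusted p = 0.04448 and 0.06457, edgeR). Its call with sgPHF8-1 was lost in 8 settings (adjusted p 0.0536 to 0.1748), and 2 settings gave a call with sgPHF8-3 (adjusted p 0.03255 to 0.04649).

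Markers of other cell types were low but not all level. The 3 keratinocyte and epithelial markers summed to 38.1 to 44.008 normalized counts with sgScr, 13.4 to 27.0 with sgPHF8-1 and 18.0 to 29.7 with sgPHF8-3, nearly all from KRT14, which fell with both guides (-1.10, adjusted p = 0.00129, and -0.90, adjusted p = 0.009203, edgeR), the second call being lost without sgScr replicate B (-0.83, adjusted p = 0.05011) and given no adjusted p by DESeq2. The 4 fibroblast markers summed to 373 to 421, 388 to 426 and 316 to 362, with DCN at 0 in all libraries, PDGFRB called lower with sgPHF8-1 (-1.86, adjusted p = 0.0008055) and LUM with sgPHF8-3 (-0.25, adjusted p = 0.02164). DESeq2 gave PDGFRB no adjusted p, so that this call rests on edgeR. The LUM call was lost with DESeq2 and without sgScr replicate A or B or sgPHF8-3 replicate A or B (-0.25 to -0.20, adjusted p 0.05182 to 0.1103). The 3 leukocyte markers summed to at most 13.1 and the 2 endothelial markers to at most 9.22. These marker genes were named after their values were seen, and the part of any of these lists in the transporter results was not tested.

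Promoter sequences are shown for SLC3A2, SLC38A1, SLC7A1 and SLC7A5, because these windows hold the motifs through which ATF4 and its partners, the antioxidant factors and the MYC family are known to act, and because the genes differed in direction. Each window runs from 250 bases before to 50 bases after an annotated RefSeq start (GRCh38.p14), and 9 of the 10 genes had an entry, all but SLC7A11. The windows were searched on both strands for TGATGNAA (the C/EBP-ATF composite element), TGACNNNGC (the core of the antioxidant response element) and CACGTG (the E-box), and no matches overlapped one another in the windows of the set. Capitals mark the matches, and the sequences read 5′ to 3′ along the gene's strand. The windows are chr11:62881449-62881748 on the plus strand for SLC3A2, and chr12:46266467-46266766, chr13:29595639-29595938 and chr16:87869458-87869757 on the minus strand for SLC38A1, SLC7A1 and SLC7A5.
SLC3A2: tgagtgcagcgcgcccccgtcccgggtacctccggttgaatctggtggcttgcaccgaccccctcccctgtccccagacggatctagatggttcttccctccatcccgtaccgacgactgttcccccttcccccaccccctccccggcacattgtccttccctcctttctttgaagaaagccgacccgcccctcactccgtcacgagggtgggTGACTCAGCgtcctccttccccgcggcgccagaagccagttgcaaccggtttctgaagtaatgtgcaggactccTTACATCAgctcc
SLC38A1: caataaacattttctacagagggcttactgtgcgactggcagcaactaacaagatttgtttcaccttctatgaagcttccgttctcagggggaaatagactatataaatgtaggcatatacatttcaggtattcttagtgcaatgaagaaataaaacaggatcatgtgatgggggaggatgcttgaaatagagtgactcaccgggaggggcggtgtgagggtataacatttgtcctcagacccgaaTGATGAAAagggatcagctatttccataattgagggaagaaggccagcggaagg
SLC7A1: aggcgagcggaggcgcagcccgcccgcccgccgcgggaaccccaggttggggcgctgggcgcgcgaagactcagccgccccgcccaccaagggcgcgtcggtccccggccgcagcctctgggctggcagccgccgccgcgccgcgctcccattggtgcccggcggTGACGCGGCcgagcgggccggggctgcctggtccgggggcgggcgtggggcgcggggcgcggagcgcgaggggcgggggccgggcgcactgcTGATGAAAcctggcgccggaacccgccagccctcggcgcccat
SLC7A5: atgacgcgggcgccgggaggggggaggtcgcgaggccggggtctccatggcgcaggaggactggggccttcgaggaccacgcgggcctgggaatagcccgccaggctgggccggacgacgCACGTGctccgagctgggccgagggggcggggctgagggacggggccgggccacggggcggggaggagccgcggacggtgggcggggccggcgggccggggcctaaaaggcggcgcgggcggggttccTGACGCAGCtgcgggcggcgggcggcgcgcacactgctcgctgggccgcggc

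The composite element was found in windows of 5 of the 9 genes, namely SLC3A2, SLC38A1, SLC7A1, SLC1A4 and SLC1A5. A gene with several windows, such as SLC3A2 or SLC1A5, has more chances of a match, and the number of windows per gene was not matched to the background. The element was present in 3.617% of all 35116 windows and, counted by gene, in 4.457% of 27305 genes. It lay at 38 bases after the start in SLC3A2, 4 before it in SLC38A1, 8 after it in SLC7A1, 7 before it in SLC1A4 and 97 before it in the farthest downstream SLC1A5 window (chr19:46784765-46785064, minus strand). The windows of SLC7A5, SLC43A1, SLC38A2 and SLC6A9 held no composite match, and that of SLC7A5 held an antioxidant core across the start and an E-box at 130 bases before it. The antioxidant core was found in 4 of the 9 genes (16.06% of all genes) and the E-box in 3 of the 9 (8.775% of all genes). SLC38A2 and SLC6A9 had none of these letters in their windows. Among 45 other amino acid transporter genes with an entry, 2 held the composite element, 7 the antioxidant core and 9 the E-box. A match is a run of letters and not evidence of binding.

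**Figure D1:**
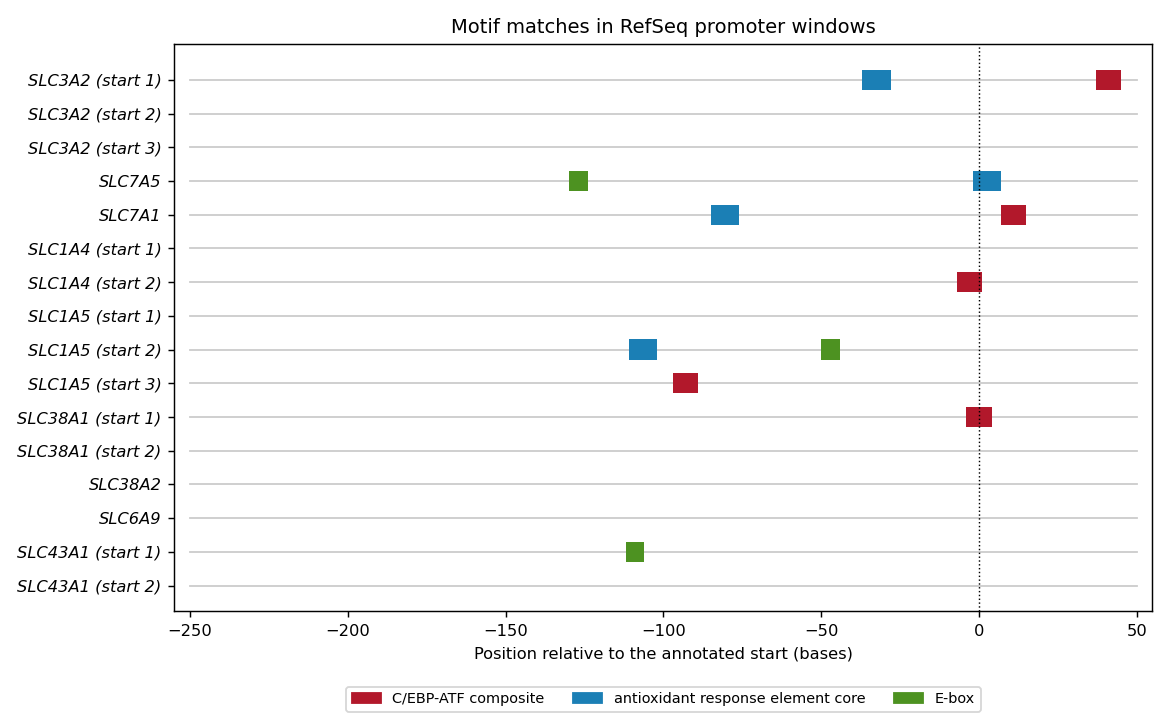
Positions of motif matches (coloured boxes) in 300-base RefSeq promoter windows of 9 transporter genes, as the distance in bases from the annotated start (dotted line), with a row for each start. The composite element is present in 5 genes and absent from the windows of SLC7A5, SLC43A1, SLC38A2 and SLC6A9.

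The 3 genes of the CD98 complexes split. SLC3A2 and SLC7A11 were higher with both PHF8 guides, whereas SLC7A5 was lower. SLC3A2 (GRCh37, chr11:62623476-62656352, plus strand) gave 3242, 3165 and 3135 normalized counts with sgScr, 4359, 4068 and 4341 with sgPHF8-1, and 4281, 4246 and 4402 with sgPHF8-3. All 6 knockout libraries were above the control libraries, by 33.8% with sgPHF8-1 and 35.5% with sgPHF8-3 in the fit (log2 fold change 0.42, SE 0.034, and 0.44, SE 0.034). The libraries of the 2 guides overlapped.

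SLC7A11 (chr4:139085251-139163503, minus strand) gave 616, 600.2 and 569 normalized counts in the control libraries, 823, 874 and 933 with sgPHF8-1, and 883, 915 and 1044 with sgPHF8-3. No knockout library reached down to the control range, and the guides again overlapped. Its fitted change had the greatest size of the 10 genes with either guide, at 1.47-fold (log2 0.56, SE 0.060) with sgPHF8-1 and 1.59-fold (log2 0.67, SE 0.059) with sgPHF8-3, which placed it at percentiles 97.95 and 98.96 of all 14614 genes tested. An antisense gene, SLC7A11-AS1, shares 865 bases of exon with it but averaged 0.222 reads per library.

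SLC7A5 (chr16:87863629-87903113, minus strand) gave 2257, 2287 and 2205 normalized counts with sgScr, 1584, 1601 and 1669 with sgPHF8-1, and 1784, 1749.6 and 1687 with sgPHF8-3. Every knockout library was below every control library, and the sgPHF8-1 libraries were all below those of sgPHF8-3. The fitted level fell by 28.1% with sgPHF8-1 (log2 fold change -0.48, SE 0.035) and by 22.6% with sgPHF8-3 (-0.37, SE 0.034), at percentiles 4.52 and 5.41 of all genes. Near-identical pseudogene copies can take up reads of SLC7A5. SLC7A5P1 had 9.30 to 20.5 normalized counts and SLC7A5P2 was at 0 in all libraries. These counts do not measure reads that match both SLC7A5 and a copy, and the part of such reads was not tested.

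Ratios within a library set the light chains against their shared heavy chain without any scaling between libraries. The ratio of SLC7A5 to SLC3A2 counts was 0.707 ± 0.0138 (SD, n = 3) with sgScr, 0.3805 ± 0.0155 with sgPHF8-1 and 0.404 ± 0.0181 with sgPHF8-3, and the control range did not meet either knockout range. The ratio of SLC7A11 to SLC3A2 moved less, from 0.187 ± 0.00487 to 0.206 ± 0.0151 and 0.220 ± 0.0159, and sgPHF8-1 replicate A (0.189) lay within the control range of 0.181 to 0.190. Set against each other, SLC7A11 stood at 0.264 ± 0.0077 of SLC7A5 in the control cells and at 0.542 ± 0.0201 and 0.546 ± 0.0651 in the knockouts. The set was selected with SLC7A5 falling while others rose, so the separation of these ratios restates the levels above. How often the ratios of other gene pairs separate was not tested. The ratios compare transcripts and say nothing of the proteins or of transport.

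**Figure D2:**
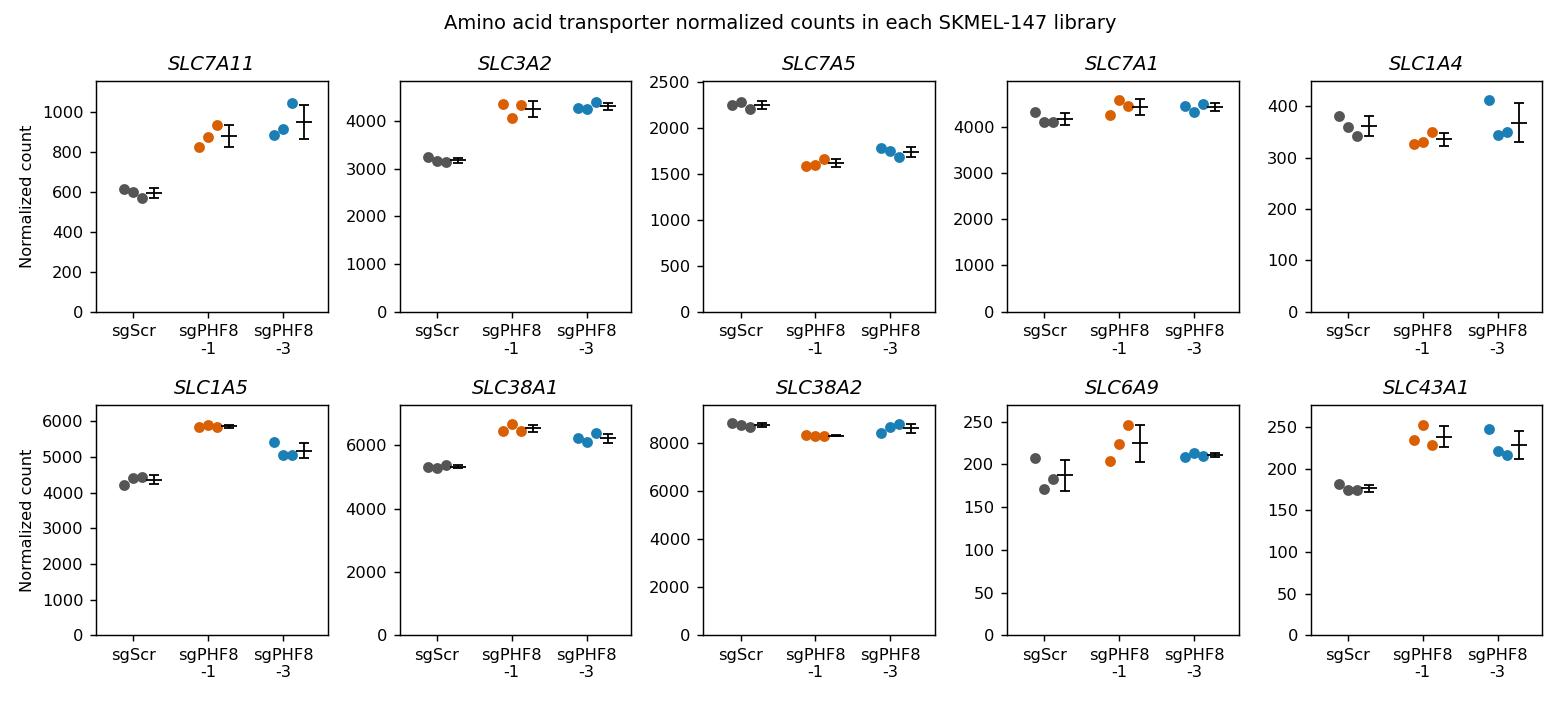
Normalized counts of the 10 transporters in each of 9 libraries (points), with the group mean and SD (black) and each axis starting at 0. SLC7A5 is lower in all 6 knockout libraries, SLC7A11, SLC3A2, SLC1A5, SLC38A1 and SLC43A1 are higher in all 6, and SLC7A1 and SLC1A4 overlap with the control libraries.

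The sodium-dependent exchangers of small neutral amino acids, ASCT2 (SLC1A5, the main glutamine exchanger of many tumour lines) and ASCT1 (SLC1A4, a serine and alanine carrier), did not move together. SLC1A5 (chr19:47278140-47291851, minus strand) gave 4212, 4422 and 4454 normalized counts with sgScr, 5830.4, 5903 and 5840.4 with sgPHF8-1, and 5429.8, 5049.98 and 5054 with sgPHF8-3. All knockout libraries were above the controls, and all sgPHF8-3 libraries were below those of sgPHF8-1. The fitted difference was 34.2% (log2 0.425, SE 0.033) with sgPHF8-1 and 18.7% (log2 0.25, SE 0.033) with sgPHF8-3, and -0.18 (SE 0.033) on the log2 scale between the guides. SLC1A5 shares 780 bases, 23.4% of its exon length, with an antisense gene that has no row in the count table. Whether the counting used strand is not stated, so reads of that gene cannot be told apart from those of SLC1A5.

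SLC1A4 (chr2:65215611-65250999, plus strand) gave 382, 360.5 and 342 normalized counts with sgScr, 326, 331 and 350.3 with sgPHF8-1, and 412, 343 and 349.9 with sgPHF8-3. Its groups overlapped, with sgPHF8-3 replicate A the highest of the 9 libraries. The fitted log2 fold changes were -0.11 (SE 0.073) and 0.03 (SE 0.072). The ratio of SLC1A4 to SLC1A5 was 0.083 ± 0.00708 in the control cells, 0.0573 ± 0.0023 with sgPHF8-1 and 0.071 ± 0.0042 with sgPHF8-3.

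The SNAT carriers SLC38A1 (SNAT1) and SLC38A2 (SNAT2), which load cells with glutamine and other small neutral amino acids together with sodium, are neighbours on chromosome 12 and were among the most abundant of the set. SLC38A1 (chr12:46576846-46663800, minus strand) gave 5316, 5293 and 5375 normalized counts with sgScr, 6461, 6672 and 6463 with sgPHF8-1, and 6219, 6092 and 6373 with sgPHF8-3. All knockout libraries were above the controls, and those of sgPHF8-3 were below those of sgPHF8-1. The fitted difference was 22.6% (log2 0.29, SE 0.029) and 16.9% (log2 0.22, SE 0.030).

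SLC38A2 (chr12:46751971-46766556, minus strand), a transporter known to be induced when amino acids are withdrawn, gave 8873, 8781 and 8695 normalized counts with sgScr, 8369, 8312 and 8311 with sgPHF8-1, and 8417, 8674 and 8803 with sgPHF8-3. The sgPHF8-1 libraries were all below the controls, but by a log2 fold change of only -0.08 (SE 0.029), while those of sgPHF8-3 overlapped with the controls (-0.03, SE 0.028). It was thus not among the transporters with a higher level in the knockouts. The ratio of SLC38A2 to SLC38A1 went from 1.649 ± 0.0272 to 1.276 ± 0.0263 with sgPHF8-1 and 1.386 ± 0.0354 with sgPHF8-3, with no overlap between the control and the knockout libraries. This ratio restates the levels of these selected genes, of which SLC38A1 was higher with both guides.

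**Figure D3:**
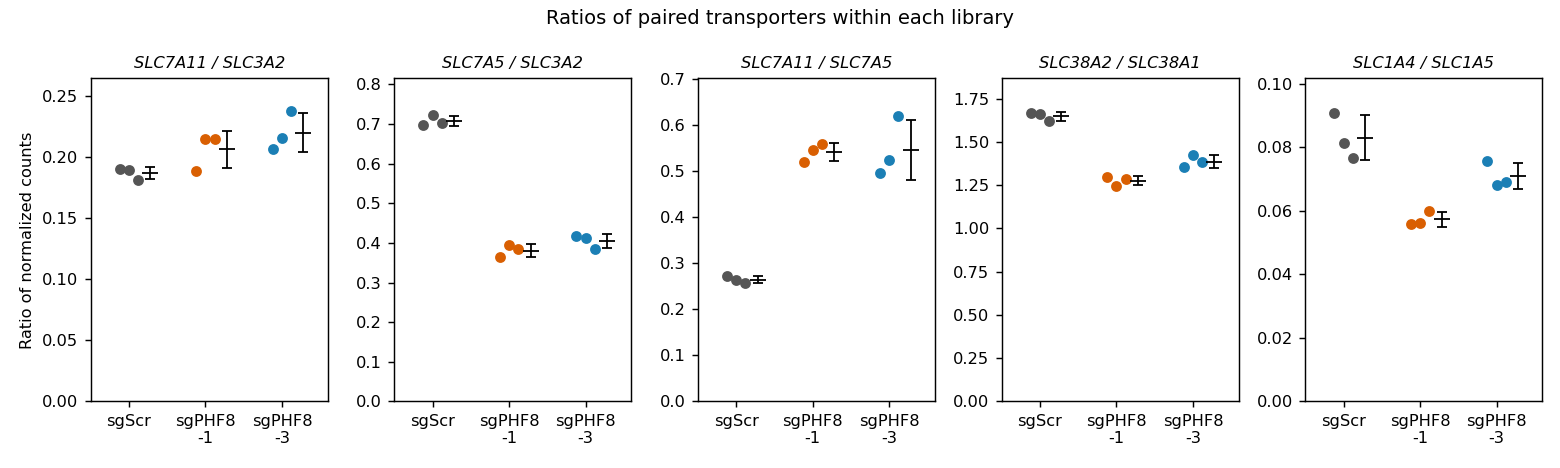
Ratios of normalized counts for 5 pairs of transporters within each library (points), with group means and SD (black), on axes that start at 0. The SLC7A5 to SLC3A2 ratio lies near 0.707 in control cells and near 0.3805 and 0.404 in the knockouts.

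The remaining carriers differ in their substrates. SLC43A1 (LAT3, a facilitated carrier of branched-chain amino acids and phenylalanine; chr11:57252007-57283253, minus strand) gave 181, 174 and 174 normalized counts with sgScr, 234, 252 and 228 with sgPHF8-1, and 248, 221 and 217 with sgPHF8-3. All knockout libraries were above the controls, by a log2 fold change of 0.43 (SE 0.084) and 0.38 (SE 0.084). The substrates of LAT3 and LAT1 overlap, and their transcripts lay on opposite sides of the control level.

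SLC6A9 (GlyT1, the sodium- and chloride-dependent glycine transporter; chr1:44457172-44497139, minus strand) gave 207, 171 and 183 normalized counts with sgScr, 204, 224 and 246 with sgPHF8-1, and 209, 213 and 210.4 with sgPHF8-3. The control libraries spread from 171 to 207, so that sgPHF8-1 overlapped with them and the lowest sgPHF8-3 library, at 209, lay just above the highest control library. Its fitted changes of 0.26 (SE 0.090) and 0.17 (SE 0.091) had the largest standard errors of the set. It shares 413 bases, 7.87% of its exon length, with CCDC24 on the other strand, a gene with an average of 79.8 reads, and whether the counting used strand is not stated.

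SLC7A1 (CAT1, the main importer of arginine and lysine; chr13:30083551-30169825, minus strand) gave 4326.5, 4089.95 and 4093 normalized counts with sgScr, 4245, 4577 and 4443 with sgPHF8-1, and 4448, 4321 and 4494 with sgPHF8-3. The highest control library lay within the range of both knockouts. The fitted log2 fold change was 0.08 (SE 0.033) with either guide.

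Across the set, 6 genes passed the threshold of adjusted p below 0.05 as higher and 2 as lower with sgPHF8-1, where 15.2% and 15.7% of all 14614 genes were called higher and lower. With sgPHF8-3, 5 were called higher and 1 lower, beside 9.48% and 9.78% of all genes. Between the guides, 1 was called lower with sgPHF8-3 and 0 higher by edgeR (1 at an unadjusted p under 0.05, and 0 by DESeq2), beside 4.74% and 5.83% of all genes. These counts moved when a library was left out. With sgPHF8-1, the 2 lower calls became 1 without any single sgScr or sgPHF8-1 library, without sgPHF8-3 replicate B and without the low-count filter, and the higher calls ranged from 5 (without sgScr replicate B or C or sgPHF8-1 replicate C, and with DESeq2) to 7 (without sgScr replicate A or sgPHF8-1 replicate A). With sgPHF8-3 the higher calls became 6 without sgPHF8-1 replicate B, and between the guides 1 gene was called higher without sgPHF8-1 replicate C, without sgPHF8-3 replicate C or with at least 10 counts required in every library. Nothing is read from these counts, because the genes were chosen for their differences in these libraries, and both comparisons use the same sgScr libraries. Without regard to a fit, 5 genes had all sgPHF8-1 libraries above and 2 had all of them below the control libraries (21.1% and 21.1% of all genes), and for sgPHF8-3 these numbers were 6 and 1 (18.7% and 17.8%). The median log2 fold change of the 10 genes was 0.28 and 0.20, where that of all genes was 0.00 with either guide. The normalized counts of all 10 summed to 29223 to 29614 with sgScr, 32434 to 32825 with sgPHF8-1 and 31827 to 32635 with sgPHF8-3.

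**Figure D4:**
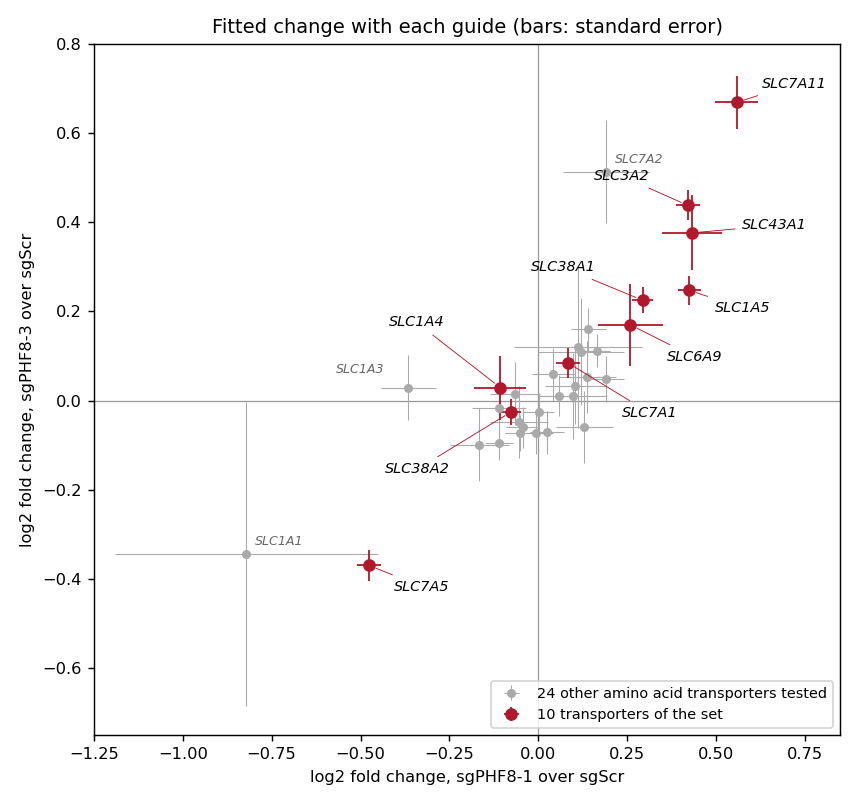
Fitted log2 fold change against sgScr with sgPHF8-1 (horizontal) and sgPHF8-3 (vertical) for the 10 transporters (red) and 24 other amino acid transporters (grey), with standard errors as bars. Both axes share the sgScr libraries, SLC7A11 lies farthest to the upper right at 0.56 and 0.67, and SLC7A5 lies at -0.48 and -0.37.

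Levels were compared between genes per kilobase of exon. In control cells SLC38A2 (1349 ± 13.7 normalized counts per kb) and SLC1A5 (1309 ± 39.4) were the highest, and their libraries overlapped. SLC7A1 (542 ± 17.7), SLC38A1 (532 ± 4.20), SLC3A2 (498 ± 8.65) and SLC7A5 (472 ± 8.81) followed, and of these neighbours only SLC7A1 and SLC38A1 overlapped. SLC7A11 (61.7 ± 2.50), SLC1A4 (52.1 ± 2.89), SLC43A1 (50.02 ± 1.19) and SLC6A9 (35.7 ± 3.48) formed the low end, where SLC1A4 and SLC43A1 overlapped. In the knockouts SLC1A5 was first, at 1758 ± 11.9 and 1554 ± 65.5, and SLC3A2 was the third in order, at 666 ± 25.6 and 674 ± 12.8. SLC7A5 stayed in sixth place but dropped away from the 3 genes above it, to 340 ± 9.44 and 365 ± 10.3.

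**Figure D5:**
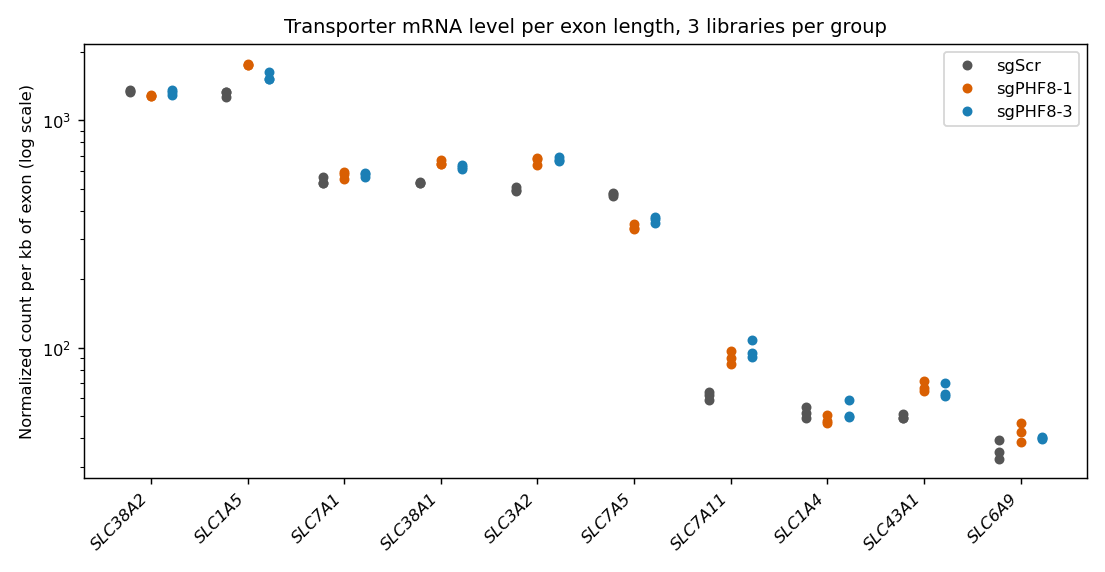
Normalized counts per kilobase of exon (log scale) for the 10 transporters in the 3 libraries of each group (points), ordered by the control level. Levels span from 1349 for SLC38A2 to 35.7 for SLC6A9 in control cells, and SLC7A5 separates from SLC7A1, SLC38A1 and SLC3A2 in the knockouts.

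The other amino acid transporters were examined as a list. Of 55 genes listed, 54 were in the table, 12 were at 0 in all libraries and 24 passed the low-count filter. With sgPHF8-1, 3 of the 24 were called higher and 2 lower, where all genes gave 15.2% and 15.7%, and with sgPHF8-3, 3 were called higher and 0 lower by edgeR, where 1 gene was lower at an unadjusted p under 0.05 and DESeq2 also called 0, where all genes gave 9.48% and 9.78%. The median log2 fold change of the 24 was 0.03 and 0.01. Among all 177 tested genes with an SLC symbol outside the set, the listed ones included, 14.7% were called higher and 11.9% lower with sgPHF8-1, and 7.34% and 9.04% with sgPHF8-3.

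SLC6A15, a sodium-coupled carrier of branched-chain amino acids and proline, rose in each comparison with sgScr. It had 1652 ± 39.0 normalized counts with sgScr (SD, n = 3), 1852 ± 43.3 with sgPHF8-1 and 1785 ± 79.8 with sgPHF8-3. Its log2 fold change was 0.17 (SE 0.037, adjusted p = 0.001114, edgeR) with sgPHF8-1 and 0.11 (SE 0.037, adjusted p = 0.03552) with sgPHF8-3. SLC25A13, the mitochondrial aspartate-glutamate carrier citrin, had 624 ± 11.6, 689 ± 27.3 and 698 ± 15.8 normalized counts. It was called higher with both guides as well, at 0.14 (SE 0.049, adjusted p = 0.02977) and 0.16 (SE 0.049, adjusted p = 0.02176) by edgeR. The sgPHF8-3 calls of both genes were lost without sgScr replicate B or C or sgPHF8-3 replicate A or C, with DESeq2 and without the low-count filter (log2 fold changes 0.08 to 0.12, adjusted p 0.05914 to 0.1876 for SLC6A15, and 0.15 to 0.16, adjusted p 0.05652 to 0.1014 for SLC25A13). The SLC25A13 call with sgPHF8-1 was lost in 7 settings, among them the removal of any control library (0.12 to 0.15, adjusted p 0.05616 to 0.1304).

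The other calls on this list are named although they fell outside the rule for naming genes, and were singled out after their values were seen. SLC1A3, a glial-type glutamate transporter, gave 363, 328 and 333 normalized counts with sgScr, 282, 270.4 and 243 with sgPHF8-1, and 353, 319.8 and 373 with sgPHF8-3. It fell by 0.37 on the log2 scale with sgPHF8-1 (SE 0.077, adjusted p = 0.0006034, edgeR) but overlapped with the controls under sgPHF8-3, and the difference between the guides itself passed the test (0.39, SE 0.078, adjusted p = 0.001348). SLC7A2, a cationic amino acid transporter related to SLC7A1, was called with sgPHF8-3 (log2 fold change 0.51, SE 0.116, adjusted p = 0.00226, edgeR) and was at 0.19 (adjusted p = 0.2522) with sgPHF8-1, which became 0.36 (adjusted p = 0.03349) without sgScr replicate A. With sgPHF8-1, SLC38A9, the lysosomal arginine sensor, was called higher (0.19, adjusted p = 0.005168, edgeR), and SLC7A6, a further SLC3A2 partner, was called lower (-0.11, adjusted p = 0.02914). The SLC7A6 call was lost without sgScr replicate A or B or sgPHF8-1 replicate B and with DESeq2 (-0.11 to -0.07, adjusted p 0.08059 to 0.1915).

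Regulators of the ATF4 pathway, which controls many of these transporters, mostly rose. With sgPHF8-1, 10 of the 15 tested were called higher and 3 lower, and with sgPHF8-3, 10 were called higher and 1 lower, with a list median of 0.26 and 0.21 on the log2 scale. Of all genes, 15.2% were called higher and 15.7% lower with sgPHF8-1, and 9.48% and 9.78% with sgPHF8-3. The list was written with the transporter set and its stated direction known, so no excess is read from these counts. The lower calls were the eIF2alpha kinases, EIF2AK1 (-0.11 and -0.14), EIF2AK2 (-0.16, with sgPHF8-1) and EIF2AK4 (GCN2, -0.08, with sgPHF8-1), named after their values were seen. With DESeq2, without sgScr replicate A and without sgPHF8-1 replicate C, only 1 of the 3 calls with sgPHF8-1 was left, and that of EIF2AK4 was also lost in 5 more settings (-0.09 to -0.07 over all 8, adjusted p 0.06139 to 0.1718). CHAC1, a glutathione-degrading enzyme induced by ATF4, went from 65.3 ± 4.57 normalized counts to 121 ± 8.26 with sgPHF8-1 and 128 ± 8.87 with sgPHF8-3 (log2 fold changes 0.89, adjusted p = 3.398e-06, and 0.97, adjusted p = 1.594e-06, edgeR). PPP1R15A (GADD34), which directs the phosphatase that reverses eIF2alpha phosphorylation, went from 3004 ± 149 to 4304 ± 75.6 and 4323 ± 76.8 (0.52, adjusted p = 8.04e-12, and 0.52, adjusted p = 4.601e-11, edgeR). JDP2, an AP-1 repressor, was called at 1.251 (SE 0.139) and 0.71 (SE 0.151), and ATF3, a stress-induced factor, at 0.38 (SE 0.124) and 0.74 (SE 0.118). The ATF3 call with sgPHF8-1 was lost without sgScr replicate B or C or sgPHF8-1 replicate A or B, and with DESeq2 (0.31 to 0.38, adjusted p 0.06731 to 0.1072). ATF4 itself, looked at for its role and not by the naming rule, had 7527 ± 85.0 normalized counts with sgScr, 9384 ± 323 with sgPHF8-1 and 9106 ± 320 with sgPHF8-3. Its log2 fold changes were 0.32 (adjusted p = 1.195e-08) and 0.27 (adjusted p = 3.452e-07) by edgeR.

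Enzymes that make amino acids and glutathione gave more calls upward than downward as well. Of 18 tested, 12 were called higher and 1 lower with sgPHF8-1, and 11 higher and 0 lower with sgPHF8-3 by edgeR, where 1 was lower at an unadjusted p under 0.05 and DESeq2 called 0. The shares of all genes were 15.2% and 15.7% with sgPHF8-1, and 9.48% and 9.78% with sgPHF8-3. This list, too, was written with the direction of the transporter set known, and no excess is read from its counts. The list median was 0.20 with either guide. The single lower call was GLUL, glutamine synthetase (log2 fold change -0.13, adjusted p = 0.02554, edgeR), and it was lost without sgScr replicate C or sgPHF8-1 replicate A or B, and with DESeq2 (-0.14 to -0.11, adjusted p 0.05918 to 0.1324). ASNS, asparagine synthetase, went from 453 ± 34.6 normalized counts to 743 ± 78.7 and 710.2 ± 45.02 (log2 fold changes 0.71, adjusted p = 6.935e-09, and 0.65, adjusted p = 9.538e-08, edgeR). CBS, the entry enzyme of transsulfuration from homocysteine to cysteine, was at 0.58 and 0.37, MTHFD2 of mitochondrial one-carbon metabolism at 0.45 and 0.35, and GPT2, which makes alanine from pyruvate, at 0.26 and 0.37, all called in each comparison.

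Genes that sense amino acids upstream of the growth kinase complex mTORC1, for which leucine entry through LAT1 is a known input, gave calls in both directions. Of 36 tested, 11 were called higher and 4 lower with sgPHF8-1, and 2 higher and 4 lower with sgPHF8-3, with a list median of 0.01 and -0.04. Beside these stand 15.2% and 15.7% of all genes with sgPHF8-1, and 9.48% and 9.78% with sgPHF8-3. With DESeq2 the higher and lower calls were 8 and 3 with sgPHF8-1, and 1 and 3 with sgPHF8-3. Without sgScr replicate B they were 7 and 3 with sgPHF8-1, and 1 and 2 with sgPHF8-3. No excess is read from these counts, because the list was written with the direction of the transporter set known. DDIT4 (REDD1), an inhibitor of mTORC1 and itself a known ATF4 target, fell from 1871 ± 20.5 normalized counts to 1178 ± 60.8 with sgPHF8-1 and 1308 ± 71.9 with sgPHF8-3 (log2 fold changes -0.67, adjusted p = 1.548e-12, and -0.52, adjusted p = 6.469e-10, edgeR). SESN3, a member of the sestrins, inhibitors of mTORC1 acting through GATOR2, fell from 181 ± 13.5 to 129 ± 11.98 and 119 ± 9.90 (-0.49, adjusted p = 0.0005182, and -0.60, adjusted p = 0.0001213, edgeR). Of the other sestrins, named after their values were seen, SESN2 was called higher with sgPHF8-1 (0.20, adjusted p = 0.0351, edgeR), a call lost in 5 settings (0.15 to 0.20, adjusted p 0.0658 to 0.183), and was at 0.14 with sgPHF8-3 (adjusted p = 0.1848), and SESN1 was at 0.08 (adjusted p = 0.5479) and -0.10 (adjusted p = 0.5083). LAMTOR3, of the Ragulator scaffold on the lysosome, was called at 0.30 and 0.20, and FLCN (folliculin), a regulator of the Rag GTPases, at 0.31 and 0.20. The FLCN call with sgPHF8-3 was lost with DESeq2 and without sgScr replicate B or C or sgPHF8-3 replicate A or C (0.19 to 0.20, adjusted p 0.05652 to 0.08086). Further lower calls, named after their values were seen, included TSC1 with sgPHF8-1 (-0.13) and RRAGA with sgPHF8-3 (-0.18). That of TSC1 was lost in 5 settings (adjusted p 0.05913 to 0.1476), and that of RRAGA without sgScr replicate B or sgPHF8-3 replicate B (-0.13, adjusted p 0.1214 to 0.122).

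The genes with library profiles closest to SLC7A5 and SLC7A11 were found by the Euclidean distance between log2-scaled counts, corrected for library size, over the 9 libraries, each profile centred on its mean, among 14613 genes. Closest to SLC7A5 were VEGFA (distance 0.0887), GSN (0.0901), HMG20B (0.0902), DDR1 (0.0987) and TRAPPC9 (0.102). VEGFA, the angiogenic growth factor, had log2 fold changes of -0.50 with sgPHF8-1 and -0.39 with sgPHF8-3, beside -0.48 and -0.37 for SLC7A5. Of the other transporters of the set, SLC38A2 came first in closeness to SLC7A5, at rank 2814. Closest to SLC7A11 were PPP1R15A (0.304), GADD45A (0.311), SNAPC1 (0.321), CCDC169 (0.321) and MCTP1 (0.323), and SLC3A2 was at rank 9 (0.356). The transporters next in order were SLC43A1 at rank 81, SLC38A1 at rank 188 and SLC1A5 at rank 248. The set was chosen on these libraries with SLC7A5 falling while others rose. The ranks of its members therefore restate that choice, and nothing is read from them.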

How the data were processed

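RNA was extracted from SKMEL-147 cells with an RNeasy kit, depleted of ribosomal RNA with Ribo-Zero and made into libraries with ScriptSeq Complete Gold, and the methods call the 3 libraries of a group biological replicates. Reads were aligned to hg19 with STAR 2.4.2, and the submitters' processing notes also name bcl2fastq, Picard, HTSeq and DESeq2. The authors deposited raw counts per Ensembl gene, and a table of normalized counts. The deposited normalized signal is the count divided by 1 size factor per library, since after multiplying back 100% of values were whole within 0.01. Of 57736 identifiers, 55501 were named by the reference table and 695 by unique count profiles shared with the symbols of the normalized table.

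The members and gene lists were chosen with earlier results of these data known. Counts were fitted with edgeR 4.0.16 (R 4.3.3; TMM, filterByExpr, glmQLFit and glmQLFTest) over all 9 libraries in 1 fit, with Benjamini-Hochberg adjustment over 14614 genes and calls at adjusted p under 0.05. The standard error is the log2 fold change divided by the square root of the F statistic. The named genes were the 10 members, PHF8, other amino acid transporters called in the same direction with both guides, up to 4 such genes of each other list by mean absolute change, and the 5 closest profiles to SLC7A5 and to SLC7A11. Alternatives were DESeq2 1.42.0, RLE size factors, no low-count filter, at least 10 counts in every library, the replicate letter as a block, the study's rule of unadjusted p under 0.05 with an absolute log2 fold change above 0.25, a difference of log2(normalized count + 1) means for the members, and leaving out each library. The fit was tested on simulated data. The letters A to C did not pair the libraries, because libraries with the same letter deviated together with r between -0.083 and 0.053 (9 pairs). Replicates of a group differed by more than sampling noise (chi-square per gene 1.32 to 3.848). Exon lengths and gene coordinates came from GENCODE on GRCh37, and promoter sequences from RefSeq (GRCh38.p14). Whether the counting used strand is not given in the sources used here. Some results are not reported here.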

Additional observations from a re-analysis of the deposited data

Results flagged for a closer look

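For 16 genes outside the set of 10 transporters, PHF8 and 15 genes of the lists examined, the change with sgPHF8-3 differed from that with sgPHF8-1 by the direct test between the guides (edgeR, adjusted over 14614 genes). PHF8 itself was lower with sgPHF8-3 by a log2 difference of -0.4779 (SE 0.058, adjusted p = 3.859e-06). SLC1A3 was higher with sgPHF8-3 than with sgPHF8-1 by 0.3942 (SE 0.078, adjusted p = 0.001348). JDP2 was lower with sgPHF8-3 by -0.5417 (SE 0.128, adjusted p = 0.006434), a call that DESeq2 did not make. DDIT4 was higher with sgPHF8-3 by 0.1536 (SE 0.043, adjusted p = 0.02076), a call lost with DESeq2 and without sgPHF8-1 replicate A or sgPHF8-3 replicate A (0.11 to 0.15, adjusted p 0.05451 to 0.1534). ATF3 was higher with sgPHF8-3 by 0.3675 (SE 0.114, adjusted p = 0.03694), a call lost without sgPHF8-1 replicate A or C or sgPHF8-3 replicate A or C (0.29 to 0.40, adjusted p 0.06074 to 0.149). DESeq2 did not make the ATF3 call either. EIF2AK2 (0.1229, SE 0.038, adjusted p = 0.03826) and TSC1 (0.136, SE 0.044, adjusted p = 0.04748) were higher with sgPHF8-3 than with sgPHF8-1, and these calls were lost in 6 settings (0.09 to 0.14, adjusted p 0.05262 to 0.209) and in 8 settings (0.09 to 0.14, adjusted p 0.05803 to 0.2131). In the same lists, CEBPB was at -0.3437 (SE 0.045, adjusted p = 1.057e-05), TRIB3 at 0.1578 (SE 0.035, adjusted p = 0.004171), RRAGC at -0.2094 (SE 0.066, adjusted p = 0.04143) and LAMTOR1 at -0.1245 (SE 0.039, adjusted p = 0.04122). The RRAGC call was lost in 7 settings (-0.22 to -0.16, adjusted p 0.05313 to 0.1372) and that of LAMTOR1 in 8 (-0.13 to -0.09, adjusted p 0.05847 to 0.2142). Among the cell type markers, NGFR was higher with sgPHF8-3 than with sgPHF8-1 by 0.411 (SE 0.033, adjusted p = 6.651e-09), MITF by 0.2832 (SE 0.085, adjusted p = 0.03064), EGFR by 0.1798 (SE 0.040, adjusted p = 0.004014), AXL by 0.08106 (SE 0.0265, adjusted p = 0.049), and LUM was lower, at -0.2926 (SE 0.076, adjusted p = 0.01246). The AXL call was lost in 11 settings, among them the removal of any single library other than sgPHF8-1 replicate B (0.07 to 0.09, adjusted p 0.05667 to 0.1946). The MITF call was lost with DESeq2 and without sgPHF8-1 replicate C or sgPHF8-3 replicate A or C (0.20 to 0.28, adjusted p 0.06682 to 0.1663), and the LUM call with DESeq2 and without sgPHF8-3 replicate B (-0.29 to -0.25, adjusted p 0.05257 to 0.07672).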

How the results depend on the processing

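The 10 transporters kept their direction where called, and their 180 values under alternatives that keep every library moved by less than the SD between replicates. Of 1792 values of other named genes, 1632 kept their side of the threshold, 143 lost a call and 17 gained one, and none reversed. Beside 4513, 2814 and 1544 genes called with sgPHF8-1, with sgPHF8-3 and between the guides, DESeq2 called 3095, 1706 and 915, and the study's rule of unadjusted p and fold size 2205, 1393 and 835. Without a library these counts ranged from 3544 to 4642, from 1877 (without sgScr replicate B) to 3430, and from 923 (without sgPHF8-3 replicate B) to 1467. Calls on other amino acid transporters were few, so that single genes moved the counts. With sgPHF8-1, the 2 lower calls became 1 with DESeq2 and 1 to 3 without a library, and the 3 higher calls became 0 under the study's rule. With sgPHF8-3, the 3 higher calls became 1 with DESeq2, 1 without the low-count filter, 1 under the study's rule and 1 to 3 without a library, and the 0 lower calls became 0 to 1 without a library. Between the guides, the 1 higher call became 2 under the study's rule and 1 to 2 without a library. With the replicate block, 4395, 2698 and 1481 genes were called; the calls on other amino acid transporters did not change in number, and of the 10 transporters 6 were called higher and 1 lower with sgPHF8-1, beside 6 and 2. At these depths the standard errors of SLC6A9, SLC43A1 and SLC1A4 were 0.072 to 0.091, against 0.028 to 0.036 for the abundant carriers.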
